A study of Mus musculus with 18 samples.

Results

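SHARPIN loss was compared with WT in one sorted fraction of thymocytes, the CD69+ MHC I high cells, in 3 *Sharpin* cpdm and 3 WT mice. These 6 samples, chosen by the genotype and the MHC class I phenotype in their labels, are part of a series of 18 RNA sequencing samples. The other samples are the MHC I low fraction of the same mice, and both fractions of 3 *Hoil* ΔCd4 mice, in which a *Cd4*-Cre transgene deletes *Rbck1* (HOIL-1) in the T lineage. *Sharpin* cpdm is a spontaneous mutation, so SHARPIN is missing from every cell of these mice and not only from thymocytes. The mutants came on a C57BL/Ka background and were crossed onto C57BL/6 for 2 generations. The WT mice were C57BL/6, so the groups differed in strain background as well as at *Sharpin*, the mutants being still mostly C57BL/Ka by the study's account. The C57BL/6 substrain, the ages of the mice and the sex of each animal are not given in the sources used here. Both sexes were used in the study. Dead cells and cells carrying B220, MHC II, Mac-1, Gr1, NK1.1, δTCR, CD44 or CD25 were gated out in the sort.

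SHARPIN, HOIL-1 and HOIP (encoded by *Rnf31*) form the linear ubiquitin chain assembly complex, LUBAC, which attaches linear chains of ubiquitin to proteins at activated receptors. The chains help the IKK kinase to release NF-κB from its inhibitor IκBα, and they restrain cell death at the TNF receptor. Thymocytes that have received a positively selecting signal through the T-cell receptor (TCR) display CD69, then raise surface MHC I as they mature in the medulla, where the strength of the TCR signal and receptors of the TNF superfamily bear on deletion, regulatory T (Treg) cell differentiation and further maturation.

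Between 12808248 and 16266128 reads were counted on genes in the 6 samples. *Xist* and *Ddx3y* had a female pattern in the 3 WT mice and *Sharpin* cpdm mouse 2 and a male pattern in *Sharpin* cpdm mice 1 and 3. *Ddx3y* was also high in MHC I high cells of *Hoil* ΔCd4 mice 1 and 2 (306 and 339 CPM) but not of mouse 3 (0.384 CPM). Sex thus differed between the groups along with genotype, and sex and genotype cannot be fully told apart. Of 10 genes that escape X inactivation, 8 had negative values, with a median of −0.21, or 0.02 with *Xist* as a covariate. The model weighted the samples by their quality, from 0.642 for WT mouse 2 to 2.42 for WT mouse 3. The T-cell genes *Cd3e* and *Cd3d*, the co-receptor gene *Cd4*, and *H2-K1*, *H2-D1*, *B2m* and *Cd69*, whose products mark the gate, were not called (adjusted p from 0.092 for *Cd69* to 0.987 for *Cd3e*). *Sharpin* mRNA was at 69.4, 74.2 and 77.9 CPM in mutant mice 1, 2 and 3 and at 91.9, 86.5 and 90.8 CPM in WT mice 1, 2 and 3. All 3 mutants lay below all 3 WT mice (log2 fold change −0.29 ± 0.062 (SE), adjusted p = 0.0021, limma), and the transcript was still present. Without WT mouse 1 (adjusted p = 0.0544) or WT mouse 3 (0.109) it was no longer called. The genes of its partners had values of −0.03 for *Rnf31* and −0.01 for *Rbck1* on the log2 scale and were not called (adjusted p = 0.837 and 0.983).

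Of the 12798 genes tested, 1103 were called at a Benjamini-Hochberg adjusted p under 0.05 in the limma model, which is 8.62% of genes. In mutant cells 531 genes (4.15%) were higher and 572 (4.47%) were lower. Most differences were small. The median size was 0.41 on the log2 scale among genes that rose and 0.38 among those that fell, and 149 called genes (61 higher, 88 lower) changed by at least 1, that is 2-fold. The 3 mutants lay wholly to one side of the 3 WT mice for 959 of the called genes, and for 22.3% of all genes tested. There were 238 calls without WT mouse 3, 483 without *Sharpin* cpdm mouse 2, 497 without WT mouse 1 and 566 without *Sharpin* cpdm mouse 3. It was 431 without quality weights, 521 with edgeR, 601 with DESeq2 and 694 without a filter on low counts.

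**Figure D1:**
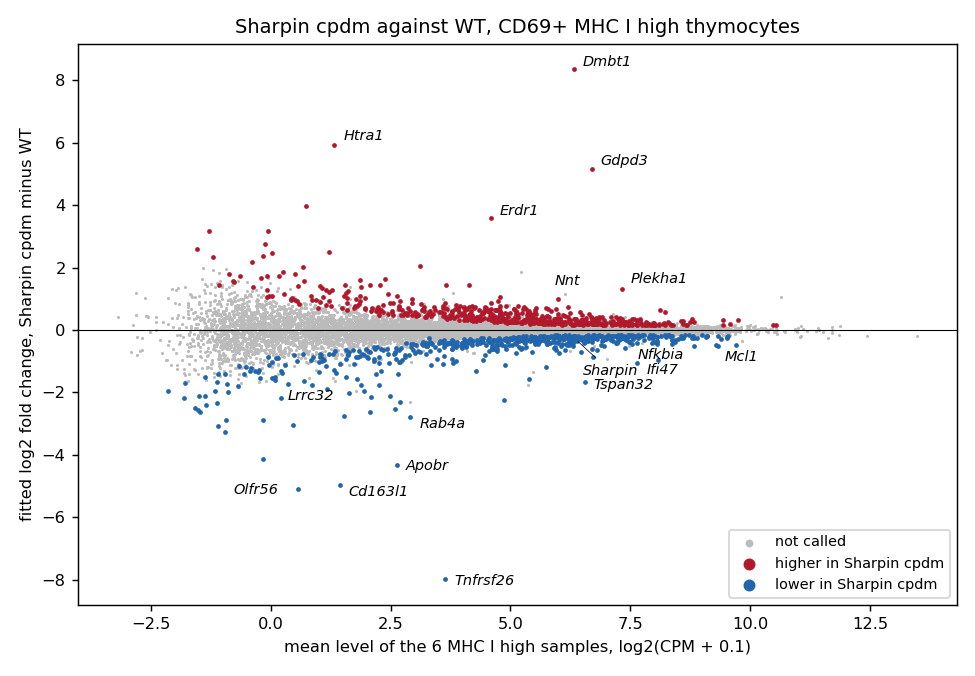
Fitted log2 fold change of *Sharpin* cpdm against WT (vertical axis) by mean level in the 6 MHC I high samples, log2(CPM + 0.1) (horizontal axis), one point per gene tested. Red points are the 531 genes called higher and blue points the 572 called lower, most of them within 1 log2 unit of 0, while *Dmbt1* (log2 fold change 8.34) and *Tnfrsf26* (−7.99) stand farthest out.

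NF-κB target genes were lower in mutant cells. Of 38 inducible targets tested, 17 fell and 3 rose, with a median log2 fold change of −0.19 against 0.003 for all genes tested. *Nfkbia*, which encodes IκBα and is itself switched on by NF-κB, was at 159, 147 and 156 CPM in the mutants and 204, 199 and 202 CPM in WT, with a wide gap between the groups (log2 fold change −0.40 ± 0.053 (SE), adjusted p = 4.37e-06). *Gadd45b*, a stress-response gene, was at 9.47, 9.15 and 10.6 CPM in the mutants and 16.5, 16.8 and 19.7 CPM in WT (log2 fold change −0.92 ± 0.13 (SE), adjusted p = 1.32e-05). *Il2ra*, which encodes CD25, the chain of the IL-2 receptor that the sort selected against on the cell surface, was at 5.95, 7.88 and 5.28 against 13.3, 11.9 and 15.7 CPM (log2 fold change −1.11 ± 0.16 (SE), adjusted p = 1.81e-05). No mutant mouse reached the lowest WT mouse for these 3 genes. The adhesion molecule gene *Icam1* and the deubiquitinase gene *Tnfaip3* (A20), added here after their values were seen, fell by 0.46 and 0.31 on the log2 scale (adjusted p = 2.33e-05 and 0.000322). The count of 17 became 7 without WT mouse 3, 10 without quality weights and 11 without the filter on low counts, and that of 3 became 1 without WT mouse 1 or 3, without weights and with DESeq2 or edgeR.

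The promoters of 4 of these genes are shown because the κB motif, the sequence that NF-κB dimers bind, stood on either strand in the 250 bases before their transcription start. They are RefSeq sequences of GRCm38.p6 written in the direction of transcription, capitals mark the motif, and matches that overlap or lie on both strands share 1 run of capitals.
Nfkbia, chr12:55492648-55492897, minus strand: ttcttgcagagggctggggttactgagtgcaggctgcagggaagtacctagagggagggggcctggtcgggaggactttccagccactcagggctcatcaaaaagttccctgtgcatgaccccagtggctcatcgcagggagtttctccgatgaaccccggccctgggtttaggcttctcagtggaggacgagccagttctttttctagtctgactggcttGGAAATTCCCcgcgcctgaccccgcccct
Il2ra, chr2:11642542-11642791, plus strand: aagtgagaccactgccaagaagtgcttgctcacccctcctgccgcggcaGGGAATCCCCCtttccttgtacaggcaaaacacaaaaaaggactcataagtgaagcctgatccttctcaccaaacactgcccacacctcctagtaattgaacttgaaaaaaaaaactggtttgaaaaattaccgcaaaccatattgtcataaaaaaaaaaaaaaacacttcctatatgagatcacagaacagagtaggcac
Nfkb2, chr19:46304487-46304736, plus strand: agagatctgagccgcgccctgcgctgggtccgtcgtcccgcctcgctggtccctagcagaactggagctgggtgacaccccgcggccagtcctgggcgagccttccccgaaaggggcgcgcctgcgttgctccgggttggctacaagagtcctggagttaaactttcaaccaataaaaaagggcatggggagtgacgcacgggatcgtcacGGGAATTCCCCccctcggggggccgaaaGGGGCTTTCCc
Tnfaip3, chr10:19015411-19015660, minus strand: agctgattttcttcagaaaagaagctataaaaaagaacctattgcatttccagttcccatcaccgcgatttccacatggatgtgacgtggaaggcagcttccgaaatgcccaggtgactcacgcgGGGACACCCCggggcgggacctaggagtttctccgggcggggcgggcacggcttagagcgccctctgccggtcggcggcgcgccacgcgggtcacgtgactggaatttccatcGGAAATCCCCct
The motif was found in 4 of 15 promoters (26.7%) of targets that fell and in 6 of 16 (37.5%) of targets that were not called. It was in 4.36% of the 9985 promoters of genes tested and in 3.75% of all 27025 in the table. Among all genes that fell, 26 of 455 promoters (5.71%) held it, and among those that rose 18 of 398 (4.52%). *Nfkb2* had 4 matches in its window, the last of them beginning 11 bases before the start, and *Nfkbia* had 1, beginning 29 bases before it.

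Of 13 LUBAC and linear ubiquitin genes 2 rose (*Tnip1* and *Tnip2*) and 2 fell (*Traf2* and *Sharpin* itself, the mutated gene). Of 17 genes of the TNF receptor 1 death complex 3 fell (*Birc3*, *Cflar* and *Traf2*), so *Traf2* is counted in both lists. The 2 LUBAC genes that rose became 1 without *Sharpin* cpdm mouse 2 or 3, WT mouse 1 or 3, weights or the filter, and with DESeq2, edgeR, *Xist* or the mouse number as a block. Calls lower in these lists became 0 and 0 without WT mouse 3, 0 and 1 without WT mouse 1, and 1 and 1 without WT mouse 2, *Sharpin* cpdm mouse 3 or weights and with DESeq2 or edgeR. *Birc3* (cIAP2), a ubiquitin ligase of that complex and an NF-κB target, was at 98.6, 101 and 103 CPM in the mutants and 122, 117 and 122 CPM in WT, without overlap (log2 fold change −0.26 ± 0.057 (SE), adjusted p = 0.00286), no longer called without WT mouse 3 (adjusted p = 0.107). Within the NF-κB pathway itself, 4 of 16 genes of NF-κB subunits, IκB proteins and IKK fell and 1 rose, with a median of −0.06. Among those that fell, *Nfkbia* and *Nfkb2* also stand in the list of NF-κB targets, so the counts overlap. *Tnip1*, counted above among the LUBAC genes that rose, stands in the list of targets too. *Nfkb2*, which encodes the p100 precursor of the non-canonical pathway, was at 139.9, 135 and 131 CPM in the mutants and 162, 171 and 168 CPM in WT (log2 fold change −0.30 ± 0.052 (SE), adjusted p = 0.000219). *Relb*, the partner of its product, was at 95.8, 88.3 and 93.1 against 104, 107 and 109 CPM (log2 fold change −0.23 ± 0.063 (SE), adjusted p = 0.02). Both genes were lower in every mutant than in any WT mouse. *Map3k14* (NIK), the kinase that drives processing of p100, rose, from 88.02, 97.7 and 93.2 CPM in WT to 122, 116 and 106 CPM in the mutants (log2 fold change 0.31 ± 0.055 (SE), adjusted p = 0.000299). *Tnip1*, which encodes an A20-binding protein that recognises linear ubiquitin, also rose, with 218, 209 and 208 CPM in the mutants against 172, 176 and 161 CPM (log2 fold change 0.35 ± 0.047 (SE), adjusted p = 7.84e-06). The genes for IKKα, IKKβ, NEMO and RelA were not called (*Chuk*, 0.05, adjusted p = 0.625, *Ikbkb*, 0.07, adjusted p = 0.388, *Ikbkg*, −0.0047, adjusted p = 0.975, and *Rela*, −0.02, adjusted p = 0.883). The count of 4 became 2 without *Sharpin* cpdm mouse 2 or 3, WT mouse 2 or 3, quality weights or the filter, and 2 with edgeR. The call of *Relb* was lost with DESeq2 (adjusted p = 0.154), with edgeR (0.141), without weights (0.138), without the filter (0.0809), without *Sharpin* cpdm mouse 2 (0.177) or 3 (0.0876), and without WT mouse 1 (0.0829), 2 (0.0598) or 3 (0.308).

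**Figure D2:**
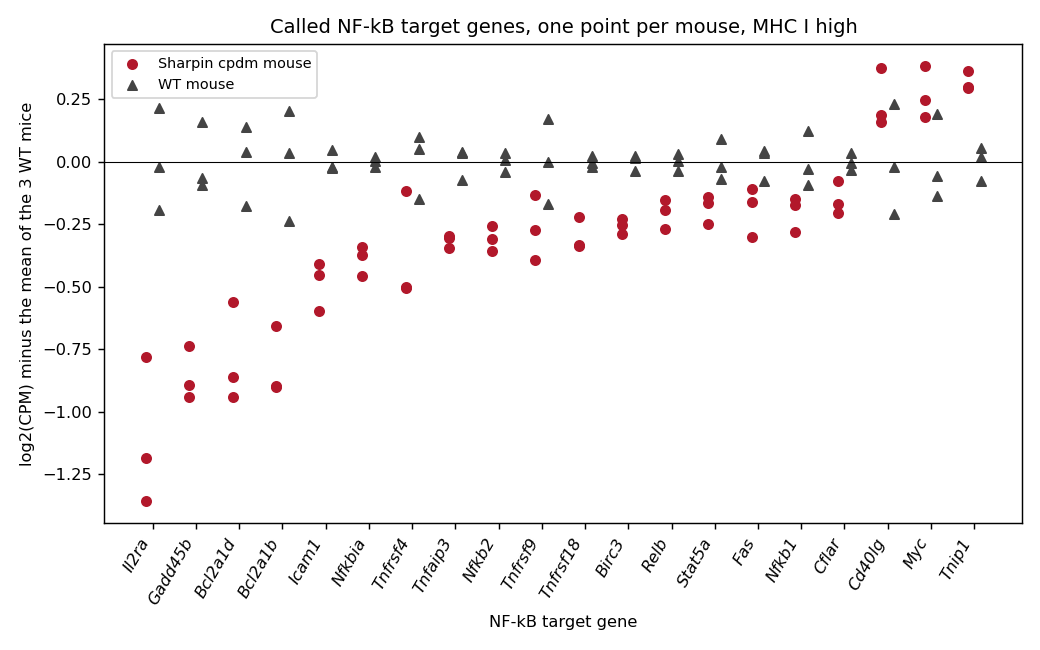
Level of the 20 called NF-κB target genes in each mouse, as log2(CPM) minus the mean of the 3 WT mice, with red circles for *Sharpin* cpdm and dark triangles for WT. The mutants lie below every WT mouse for 15 of the 17 genes that fell, the exceptions being *Tnfrsf4* and *Tnfrsf9*, and *Tnip1* is the one gene that rose without overlap.

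B cells, which were gated out by B220, were checked by 11 marker genes. The 11 listed B-cell genes summed to 22.2 to 31.8 CPM in the mutants and 34.8 to 47.3 CPM in WT, with none at 0 in all 6 samples. Of the 5 that could be tested, *Cd74*, the MHC II invariant chain gene, fell (log2 fold change −0.69 ± 0.13 (SE), adjusted p = 0.00107) and *Cd79b*, a defining B-cell receptor gene, had a value of −0.08 (adjusted p = 0.869). Without *Cd74*, the sums were 6.08, 7.25 and 6.28 CPM in the mutants and 6.87, 7.28 and 7.72 CPM in WT, and the groups overlapped. The 15 myeloid and dendritic genes summed to 10.7 to 14.6 CPM in the mutants and 11.5 to 12.6 CPM in WT. *Lyz2*, the lysozyme gene of myeloid cells, had 28 counts over the 3 mutants and 0 in WT, at least 2.92-fold higher against 3 counts per WT library, and its call was lost with edgeR (adjusted p = 0.131), without weights (0.069), *Sharpin* cpdm mouse 2 (0.0501), WT mouse 1 (0.0842) or WT mouse 3 (0.175). None of 9 neutrophil genes reached the filter, and 7 of them were at 0 in all 6 samples. The 14 listed genes of thymic epithelium and stroma and the 8 of red cells had no calls among the 5 and 1 that could be tested. The part of other cells in the results was not tested. In sorted bulk samples, fewer cells of a type and less RNA per cell cannot be told apart.

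Of 20 TNF receptor superfamily genes tested, 9 fell and none rose, with a median of −0.26. *Tnfrsf26* and its neighbours *Tnfrsf22* and *Tnfrsf23*, which encode decoy receptors related to TRAIL receptors, are 3 of the 9 and lie side by side on chromosome 7, where their values are given. *Tnfrsf25* (DR3), the death-domain receptor for TL1A, was at 15.9, 17.2 and 13.3 CPM in the mutants and 31.6, 28.8 and 25.6 CPM in WT (log2 fold change −0.80 ± 0.14 (SE), adjusted p = 0.000203). *Tnfrsf18* (GITR), a co-stimulatory receptor of Treg cells and their precursors, was at 68.2, 73.8 and 68.4 against 84.9, 85.9 and 87.5 CPM (log2 fold change −0.29 ± 0.059 (SE), adjusted p = 0.00149). Neither gene overlapped between the groups, and *Tnfrsf18* was no longer called in the fit without WT mouse 3 (adjusted p = 0.0996). The TNF receptor 1 gene *Tnfrsf1a* was not called (−0.05, adjusted p = 0.649). The count of 9 became 4 without WT mouse 3, and 5 with *Xist* as a covariate, without weights or without the filter. *Tnfrsf4*, *Tnfrsf9* and *Tnfrsf18* also stand in the list of NF-κB targets.

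Treg lineage genes were lower as well, with 7 of 19 called lower, none higher and a median of −0.24. *Lrrc32* (GARP), which displays latent TGF-β on activated Treg cells, was at 0.896, 1.46 and 0.928 CPM in the mutants and 4.04, 5.77 and 4.97 CPM in WT (log2 fold change −2.01 ± 0.27 (SE), adjusted p = 6.38e-06). *Ikzf2* (HELIOS), a transcription factor of cells that have received strong TCR signals, was at 347, 396 and 404 CPM in the mutants and 513, 489.6 and 582 CPM in WT (log2 fold change −0.51 ± 0.086 (SE), adjusted p = 0.000998). Both genes were lower in every mutant than in every WT mouse. *Foxp3*, the lineage-defining factor, was at 3.71, 3.37 and 3.14 CPM against 6.95, 3.58 and 4.34 CPM, so the groups overlapped, and it was not called (−0.48, adjusted p = 0.257). It was chosen here after its values were seen. The list shares *Il2ra*, *Tnfrsf4*, *Tnfrsf9* and *Tnfrsf18* with the NF-κB targets, and *Ikzf2* with the TCR signal genes given next. The count of 7 became 3 without WT mouse 3 and 4 without weights.

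Genes that report the strength of a TCR signal showed 6 members lower and 1 higher of 20, with a median of −0.16. *Nab2*, a co-repressor induced by EGR factors, was at 255, 211 and 215 CPM in the mutants and 291, 325 and 310.0 CPM in WT (log2 fold change −0.46 ± 0.055 (SE), adjusted p = 7.19e-07). The orphan nuclear receptor gene *Nr4a3* was at 66.4, 54.3 and 50.7 CPM against 68.9, 80.7 and 81.03 CPM (log2 fold change −0.47 ± 0.082 (SE), adjusted p = 0.000693). Neither overlapped between the groups. The phosphatase gene *Dusp5* was at 60.6, 47.3 and 51.5 CPM against 60.1, 76.8 and 68.96 CPM and fell too, although mutant mouse 1 lay just above WT mouse 1 (log2 fold change −0.40 ± 0.07 (SE), adjusted p = 0.000332). *Egr1*, *Cd5* and *Id3*, which also follow TCR signals, had values of −0.0028, −0.02 and 0.02 and were not called (adjusted p = 0.989, 0.882 and 0.916). Of 28 genes of the CD3 complex and proximal TCR signalling, 3 rose and 1 fell with a median of 0.04. *Nfatc1*, the calcium-responsive transcription factor, was the one with the smallest p-value (log2 fold change 0.35 ± 0.063 (SE), adjusted p = 0.000527). The 3 became 1 without *Sharpin* cpdm mouse 2, WT mouse 1 or 3, weights or the filter, and with DESeq2, edgeR or the mouse number as a block. The 1 that fell became 0 without *Sharpin* cpdm mouse 3, WT mouse 1 or 3, weights or the filter and with DESeq2 or edgeR, and 2 without *Sharpin* cpdm mouse 1. The single TCR reporter called higher, *Egr3*, was not called without WT mouse 1 or 3.

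Immediate-early and heat-shock genes had 6 of 18 members lower and none higher, with a median of −0.18. *Dnajb1*, a co-chaperone of HSP70, was at 108, 94.4 and 88.99 CPM in the mutants and 138, 148 and 129 CPM in WT (log2 fold change −0.48 ± 0.065 (SE), adjusted p = 1.04e-05). *Btg2*, an anti-proliferative gene that p53 also induces, was at 209, 225 and 193 CPM in the mutants and 289.5, 293 and 275 CPM in WT (log2 fold change −0.41 ± 0.06 (SE), adjusted p = 2.62e-05). Both were lower in all mutants. The count of 6 became 10 without *Sharpin* cpdm mouse 1, 2 without *Sharpin* cpdm mouse 2 or WT mouse 3, 2 with edgeR and 3 without weights.

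Among survival genes, 4 of 15 members of the BCL-2 family fell and 2 rose, with a median of −0.09. *Mcl1*, an anti-apoptotic protein that thymocytes need, was at 551, 518 and 488 CPM in the mutants and 713, 779 and 703 CPM in WT, without overlap (log2 fold change −0.47 ± 0.052 (SE), adjusted p = 1.86e-07). *Bcl2a1b* and *Bcl2a1d*, near-identical NF-κB-induced survival genes whose reads could be shared, fell by 0.72 and 0.85 on the log2 scale (adjusted p = 0.00192 and 0.00126). *Pmaip1* (NOXA), the pro-apoptotic antagonist of MCL1, rose from 1.21, 1.32 and 1.17 CPM in WT to 2.94, 3.11 and 2.997 CPM in the mutants (log2 fold change 1.28 ± 0.19 (SE), adjusted p = 2.86e-05). *Bcl2*, the survival factor that IL-7 sustains, was at 283, 275 and 287 CPM against 336, 307 and 333 CPM (log2 fold change −0.23 ± 0.049 (SE), adjusted p = 0.00204). Mutant and WT mice did not overlap for any of these genes. The call of *Bcl2* was lost without weights (adjusted p = 0.0518), *Sharpin* cpdm mouse 2 (0.0536), WT mouse 1 (0.0806) or WT mouse 3 (0.173), that of *Bcl2a1d* without WT mouse 3 (0.13), and 2 members of the family were called lower without WT mouse 3. The 2 called higher became 1 without *Sharpin* cpdm mouse 2 or 3.

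Targets of p53 had 6 of 21 members lower and 1 higher, with a median of −0.15. *Sesn1*, a stress-induced regulator of mTORC1, was at 112, 108 and 107 CPM in the mutants and 137, 129 and 136 CPM in WT, with no overlap (log2 fold change −0.32 ± 0.052 (SE), adjusted p = 0.00011). The one that rose was *Pmaip1*. *Trp53* itself was not called (−0.11, adjusted p = 0.149), nor were *Cdkn1a* (−0.37, adjusted p = 0.778) and *Mdm2* (−0.07, adjusted p = 0.389), the target genes most used to read p53 activity. The count of 6 became 2 without WT mouse 3.

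Genes of cell division were higher in mutant cells. Of 31 mitosis genes, 24 rose and none fell, with a median log2 fold change of 0.57. *Foxm1*, the transcription factor of the G2/M programme, was at 43.3, 48.4 and 55.6 CPM in the mutants and 34.3, 29.9 and 33.9 CPM in WT (log2 fold change 0.55 ± 0.089 (SE), adjusted p = 0.000104). *Tpx2*, a spindle assembly factor, was at 41.9, 46.9 and 56.7 CPM against 29.5, 27.8 and 28.8 CPM (log2 fold change 0.75 ± 0.14 (SE), adjusted p = 0.000788). *Cdca8*, a subunit of the chromosomal passenger complex, was at 24.1, 28.3 and 28.3 CPM against 17.5, 16.9 and 16.6 CPM (log2 fold change 0.69 ± 0.12 (SE), adjusted p = 0.000356). Every mutant was above every WT mouse for these 3 genes, and mutant mouse 1 was the lowest mutant for each. The 31 genes summed to 2498, 2959 and 3281 CPM in mutants 1, 2 and 3 and to 2629, 2147 and 2461 CPM in the WT mice, so the summed levels overlapped. *Smc4*, the most abundant member, was at 972, 1122 and 1167 CPM in the mutants and 1279, 1000 and 1234 CPM in WT (−0.13, adjusted p = 0.315). The count of 24 became 6 without WT mouse 3, 10 without *Sharpin* cpdm mouse 2 or 3, 14 without WT mouse 1 or 2, and 11 without weights.

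DNA replication genes followed, with 15 of 45 higher, none lower and a median of 0.31. *Rrm1*, the large subunit of ribonucleotide reductase, was at 118, 133 and 143 CPM in the mutants and 94.5, 106 and 98.3 CPM in WT (log2 fold change 0.42 ± 0.061 (SE), adjusted p = 2.16e-05). *Pola1*, the catalytic subunit of DNA polymerase α, was at 41.03, 51.3 and 54.4 CPM against 32.7, 35.6 and 32.8 CPM (log2 fold change 0.57 ± 0.094 (SE), adjusted p = 0.000124). *Uhrf1*, which maintains DNA methylation at replication forks, was at 89.3, 106 and 117 CPM against 77.8, 75.2 and 74.5 CPM (log2 fold change 0.47 ± 0.079 (SE), adjusted p = 0.000279). None of these 3 genes overlapped between the groups. The condensin gene *Ncaph*, one of the 10 genes with the smallest p-values among those that rose, was at 36.04, 43.6 and 43.5 CPM against 24.9, 26.04 and 26.3 CPM (log2 fold change 0.68 ± 0.083 (SE), adjusted p = 1.29e-06). The count of 15 became 27 without *Sharpin* cpdm mouse 1, 8 without *Sharpin* cpdm mouse 2 or 3, 9 without WT mouse 1 or without weights, and 5 without WT mouse 3.

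Markers of the preceding double-positive (DP) stage were higher, with 5 of 14 called and a median of 0.33. *Arpp21*, a DP-stage gene, was at 28.1, 39.2 and 33.9 CPM in the mutants and 24.5, 19.4 and 19.1 CPM in WT (log2 fold change 0.77 ± 0.11 (SE), adjusted p = 2.11e-05). *Cd8a*, a co-receptor subunit that DP cells carry together with CD4, was at 846, 998 and 999.9 CPM against 745, 828 and 761 CPM (log2 fold change 0.32 ± 0.064 (SE), adjusted p = 0.00158). *Rag2*, a subunit of the recombinase that rearranges TCR genes, was at 5.25, 8.64 and 8.85 CPM against 5.82, 4.64 and 4.55 CPM (log2 fold change 0.66 ± 0.19 (SE), adjusted p = 0.033). The groups did not overlap for *Arpp21* and *Cd8a*, while mutant mouse 1 lay within the WT range for *Rag2*. The count of 5 became 1 without *Sharpin* cpdm mouse 2, WT mouse 1 or WT mouse 3, 2 without *Sharpin* cpdm mouse 3, 2 with edgeR or without weights, and 3 with DESeq2 or without the random mouse block. The call of *Cd8a* was lost without *Sharpin* cpdm mouse 2 (adjusted p = 0.0633), WT mouse 1 (0.061) or WT mouse 3 (0.129), and that of *Rag2* in 10 of 18 alternatives (adjusted p from 0.00233 to 0.394). Of 19 markers of mature single-positive cells, 2 rose and 1 fell, with a median of −0.07. The 2 became 0 without WT mouse 3, 1 without WT mouse 1 or any one *Sharpin* cpdm mouse, and 4 with *Xist*. The 1 became 0 without *Sharpin* cpdm mouse 2, WT mouse 1 or WT mouse 3 and 2 without *Sharpin* cpdm mouse 1.

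**Figure D3:**
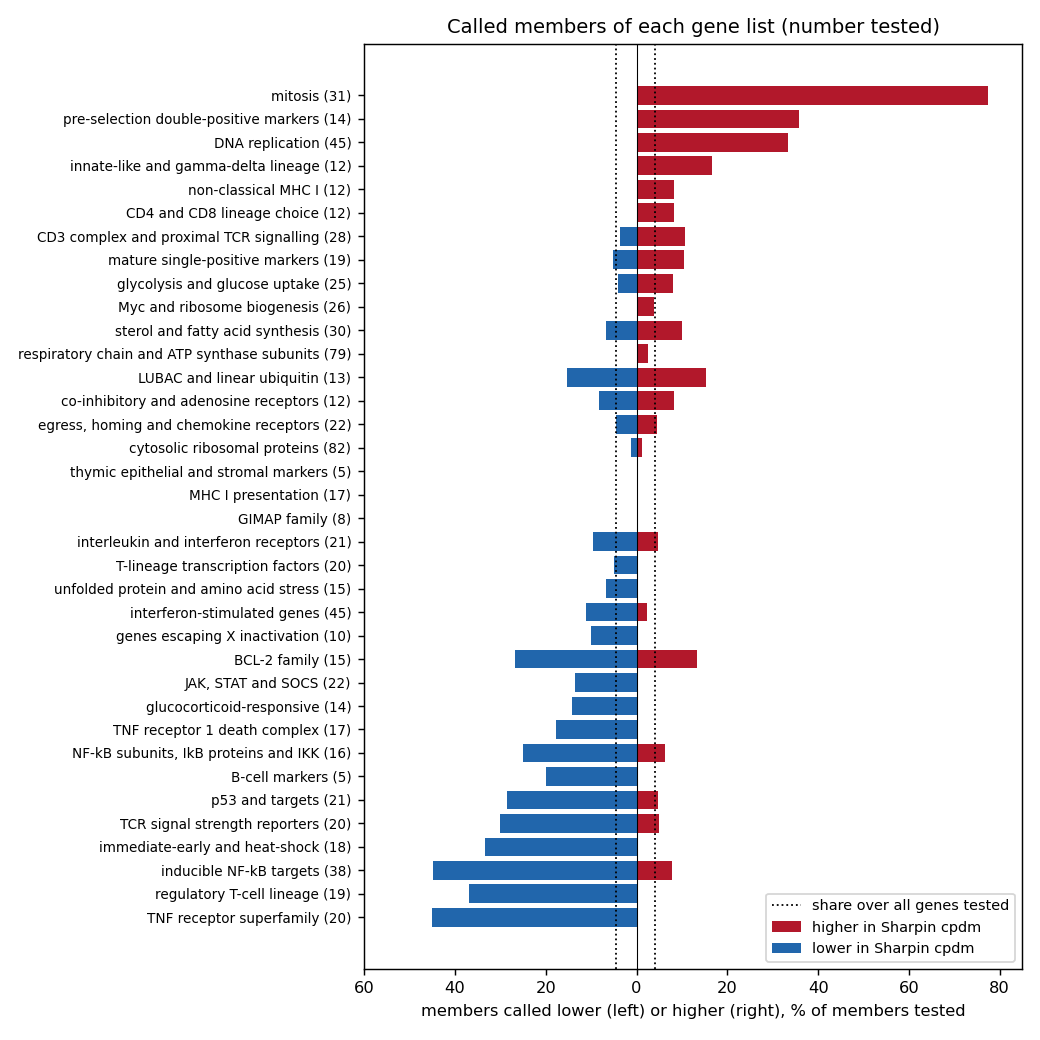
Share of the tested members of each gene list that was called higher (red, to the right) or lower (blue, to the left) in *Sharpin* cpdm MHC I high cells, for lists with at least 5 members tested, whose number stands in brackets. Dotted lines are the shares over all genes tested, 4.15% higher and 4.47% lower, and mitosis (24 of 31 higher) and the TNF receptor superfamily (9 of 20 lower) reach farthest on either side.

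Interferon-stimulated genes were mixed, with 5 of 45 lower, 1 higher and a median of 0.01. The 1 that rose, *Ifi27*, was not called without *Sharpin* cpdm mouse 2 or 3, WT mouse 1 or WT mouse 3 and with DESeq2 or edgeR, and there were 2 calls higher without *Sharpin* cpdm mouse 1 and 3 without WT mouse 2. The count of 5 became 2 without WT mouse 1, WT mouse 3 or weights and 3 in the fit without WT mouse 2, with edgeR, with *Xist* or with the mouse number as a block. *Ifi47*, an interferon-induced GTPase, was at 122, 141 and 114 CPM in the mutants and 265, 303 and 256 CPM in WT (log2 fold change −1.05 ± 0.09 (SE), adjusted p = 3.3e-07), and every mutant lay far below every WT mouse. The interferon-γ receptor gene *Ifngr2* was at 129.8, 125 and 123 CPM against 159.6, 152 and 161 CPM, also without overlap (log2 fold change −0.34 ± 0.055 (SE), adjusted p = 0.000104). *Il7r*, the IL-7 receptor α chain, was at 332, 349.9 and 328 CPM in the mutants and 294, 284 and 281 CPM in WT (log2 fold change 0.26 ± 0.046 (SE), adjusted p = 0.000356), and *Cish*, a feedback inhibitor that cytokine signals induce, was at 21.96, 19.8 and 19.7 CPM against 27.5, 30.9 and 32.3 CPM (log2 fold change −0.61 ± 0.10 (SE), adjusted p = 0.000219). Of 22 JAK, STAT and SOCS family genes 3 fell and none rose, with 0 calls lower without WT mouse 3 and 1 with edgeR or without weights. Every mutant lay above WT for *Il7r* and below it for *Cish*, and neither was called without WT mouse 3 (adjusted p = 0.0544 and 0.0511).

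The share called in other groups is set against the 8.62% of all genes tested. It was 16.7% for sterol and fatty acid synthesis and 16.7% for innate-like and γδ T-cell genes. It was 2.44% for cytosolic ribosomal proteins and 2.53% for the respiratory chain and ATP synthase. None of 17 MHC I presentation genes was called by limma (median 0.06), with 4 at an unadjusted p under 0.05 and 0 by DESeq2 or edgeR, and 1 was called without *Sharpin* cpdm mouse 2 or with *Xist*. None of 8 members of the GIMAP family, which support survival of mature T cells, was called (median −0.01), with 3 at an unadjusted p under 0.05, 0 by DESeq2 or edgeR, and 1 with *Xist*. Of 82 cytosolic ribosomal proteins 1 rose and 1 fell (median −0.01), with 4 lower without *Sharpin* cpdm mouse 2 and 0 higher without *Sharpin* cpdm mouse 1 or any one WT mouse. Of 79 subunits of the respiratory chain and ATP synthase 2 rose (median 0.01), with 0 without WT mouse 3 and 1 without *Sharpin* cpdm mouse 2 or 3 or WT mouse 1. Of 30 genes of sterol and fatty acid synthesis 3 rose and 2 fell (median 0.05). Without WT mouse 3 none of these was called in either direction, and 1 was called higher without *Sharpin* cpdm mouse 2 or 3 or WT mouse 1. Of 12 genes of innate-like and γδ T cells, 2 rose, and 1 did without any one mouse other than *Sharpin* cpdm mouse 1. *Sox13*, a transcription factor of γδ T cells, was at 5.89, 7.63 and 8.42 CPM in the mutants and 4.53, 2.95 and 2.896 CPM in WT (log2 fold change 1.15 ± 0.18 (SE), adjusted p = 0.000289).

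Genes on the distal part of chromosome 7 were called more often than others. From 120 Mb on, 24 genes rose and 24 fell of 243 tested (19.8%), and 19 of them (7.82%) changed at least 2-fold. Of the remaining 12555 genes, 507 rose and 548 fell (8.4%), and 130 (1.04%) changed that much. *Sharpin* itself lies on chromosome 15, where 9 of 132 genes of its 10 Mb bin (6.82%) were called. Among the 10 genes in each direction with the smallest p-values, 12 of 20 lay on this part of chromosome 7. The mutants differed from WT in strain background, and the alleles carried there by either group are not given in the sources used here, so genotype at *Sharpin* and strain of origin cannot be told apart for these genes. The same limit holds for genes called elsewhere in the genome.

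*Tnfrsf26* (chromosome 7, 143607685–143627845) had 2 counts over the 3 mutants and 1050 over the 3 WT mice, a ratio of 552 (95% exact interval 152 to 4564, counting error only). Its neighbour *Tnfrsf23* (chromosome 7, 143665807–143686436) had 2 against 66 counts, a ratio of 34.7 (9.23 to 293). *Tnfrsf22* (chromosome 7, 143634808–143649675) was at 0.768, 0.572 and 0.714 CPM in the mutants and 5.25, 4.77 and 4.62 CPM in WT (log2 fold change −2.74 ± 0.27 (SE), adjusted p = 3.12e-08). All 3 decoy receptor genes were far lower in every mutant, and as related genes they could share reads. *Tspan32* (chromosome 7, 143004907–143019486), a tetraspanin of blood cells, was at 45.4, 45.7 and 43.8 CPM in the mutants and 138, 144 and 144 CPM in WT (log2 fold change −1.66 ± 0.075 (SE), adjusted p = 6.51e-16). *Cd163l1* (chromosome 7, 140197218–140231145), a scavenger receptor gene, had 4 against 213 counts, a ratio of 56.0 (21.6 to 207).

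Neighbouring genes on the same part of the chromosome moved in opposite directions. *Plekha1* (chromosome 7, 130860551–130913494), an adaptor that binds a PI3K product, was at 233, 224 and 228 CPM in the mutants and 86.4, 96.99 and 91.3 CPM in WT (log2 fold change 1.32 ± 0.057 (SE), adjusted p = 5.99e-17). *Htra1* (chromosome 7, 130936203–130985658), a secreted serine protease, had 219 counts over the mutants and 0 in WT, at least 22.7-fold higher against 3 counts per library. *Dmbt1* (chromosome 7, 131032057–131121628), a scavenger receptor of mucosal surfaces, was at 178, 135 and 167 CPM in the mutants and 1.21, 0.627 and 0.207 CPM in WT (log2 fold change 8.34 ± 0.47 (SE), adjusted p = 6.26e-08). These 3 neighbours rose in every mutant. *Cln3* (chromosome 7, 126571207–126585817), a lysosomal membrane protein, was at 19.6, 20.3 and 22.6 CPM in the mutants and 66.1, 59.2 and 61.6 CPM in WT (log2 fold change −1.58 ± 0.08 (SE), adjusted p = 1.8e-15), and *Apobr*, whose annotation overlaps it (chromosome 7, 126584918–126589125), was at 0.512, 0.445 and 0.714 CPM against 10.8, 11.7 and 12.5 CPM (log2 fold change −4.32 ± 0.26 (SE), adjusted p = 1.64e-13). *Gdpd3* (chromosome 7, 126766414–126775645), a lysophospholipase, was at 125, 162 and 318 CPM in the mutants and 5.01, 4.204 and 5.24 CPM in WT (log2 fold change 5.16 ± 0.24 (SE), adjusted p = 9.44e-09), so this stretch held both directions. *Mtg1*, a GTPase of mitochondrial ribosome assembly, rose by 1.05 on the log2 scale (adjusted p = 1.68e-07), and *Zfp511*, a zinc finger gene, fell by 0.97 (adjusted p = 1.04e-09).

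**Figure D4:**
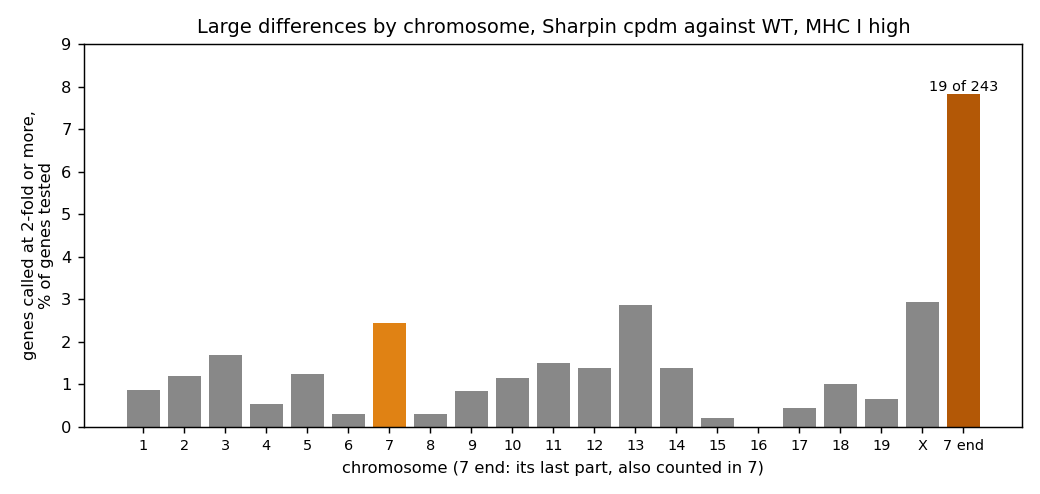
Genes called in *Sharpin* cpdm against WT MHC I high cells with a change of at least 2-fold, as a percentage of the genes tested on each chromosome. The bar "7 end" is the part of chromosome 7 from 120 Mb on, at 7.82% (19 of 243), while no whole chromosome exceeds 2.93%.

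Away from chromosome 7, *Nnt* on chromosome 13, the mitochondrial transhydrogenase gene that carries a deletion in some C57BL/6 substrains, was at 81.2, 85.9 and 85.8 CPM in the mutants and 39.1, 46.4 and 43.4 CPM in WT (log2 fold change 0.98 ± 0.066 (SE), adjusted p = 4.6e-12). *Rab4a* on chromosome 8, a GTPase of endosome recycling, was at 1.66, 1.78 and 1.86 CPM against 14.3, 13.05 and 11.9 CPM (log2 fold change −2.79 ± 0.14 (SE), adjusted p = 1.72e-15). *Rell1* on chromosome 5, a relative of the TNF receptor family member RELT, was at 28.3, 25.4 and 23.8 CPM against 9.62, 8.97 and 9.52 CPM (log2 fold change 1.44 ± 0.11 (SE), adjusted p = 1.37e-10). None of these 3 genes overlapped between the groups. *Olfr56*, an olfactory receptor gene on chromosome 11, had 1 count over the mutants and 119 over WT, a ratio of 125 (22.03 to 4983). *Penk*, which encodes an opioid precursor found in Treg cells, was at 0.576, 1.398 and 1.499 CPM in the mutants and 7.68, 5.65 and 7.999 CPM in WT (log2 fold change −2.64 ± 0.33 (SE), adjusted p = 1.71e-06). The collagen hydroxylase subunit gene *P4ha2*, the linker histone gene *H1f3* (a member of a family that could share reads) and *Erdr1* rose by 1.63, 1.59 and 3.57 on the log2 scale, with adjusted p = 3.53e-06, 2.32e-05 and 0.000118.

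The MHC I low cells of the same mice, the stage before, were compared to see where the difference depended on the fraction. There 1565 genes were called (12.2%), with 5.31% of genes higher and 6.92% lower, and the difference between genotypes itself differed between the fractions for 400 genes (3.13%). The difference was more positive in MHC I high cells for 281 of them (2.2%) and more negative for 119 (0.93%). Mitosis genes turned, with a median of −0.28 and 10 of 31 lower in MHC I low cells against 24 of 31 higher in MHC I high cells, and 23 of the 31 were called in the test of the change (10 without WT mouse 3, 13 without *Sharpin* cpdm mouse 2, 15 without *Sharpin* cpdm mouse 3 or the random mouse block, and 3 with edgeR). *Nusap1*, a microtubule-bundling protein of the spindle, fell by 0.74 at the earlier stage (adjusted p = 0.000977) and rose by 0.67 at the later one (0.00102), a change of 1.41 (5.03e-05). *Ccnb2*, cyclin B2, went from −0.61 (0.00349) to 0.63 (0.00107), a change of 1.23 (5.06e-05). Neither rise was called without WT mouse 3 (adjusted p = 0.0908 and 0.102). The number of genes whose difference changed was 104 without WT mouse 3, 121 without *Sharpin* cpdm mouse 3, 168 without WT mouse 2, 197 without *Sharpin* cpdm mouse 2, 249 without *Sharpin* cpdm mouse 1, 124 without the random mouse block, 146 without the filter, 253 without weights, 134 with DESeq2 and 30 with edgeR. The DESeq2 and edgeR fits had no mouse term, so they took the fractions of a mouse as unrelated samples.

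DP markers turned as well, from a median of −0.13 to one of 0.33, with 5 of 14 called in the test of the change, all 5 more positive in MHC I high cells. That count became 2 without *Sharpin* cpdm mouse 2 or WT mouse 3 or with edgeR, and 3 without *Sharpin* cpdm mouse 3, WT mouse 2, weights or the random mouse block or with DESeq2. NF-κB targets were lower in both fractions, with 20 of 38 lower in MHC I low cells (median −0.25) and 17 in MHC I high cells (median −0.19). For 7 of the 38 the change was called, each time in the positive direction. It was called for 0 of them without *Sharpin* cpdm mouse 3 or WT mouse 3 and with edgeR, for 1 with DESeq2, for 2 without *Sharpin* cpdm mouse 2, for 3 without WT mouse 1 and for 4 without *Sharpin* cpdm mouse 1. *Nfkbia* fell by 0.73 at the earlier and by 0.40 at the later stage, a change of 0.33 (adjusted p = 0.00676), and *Nfkb2* fell by 0.55 and 0.30, a change of 0.25 (0.0408). In other genes the difference was more negative at the later stage. *Dusp4*, a MAP kinase phosphatase induced by TCR signals, was at 19.1, 16.97 and 18.6 CPM in mutant and 25.7, 31.1 and 29.7 CPM in WT cells of the later stage (log2 fold change −0.68 ± 0.077 (SE), adjusted p = 2.74e-07), and had a value of −0.07 at the earlier one (adjusted p = 0.657), with a change of −0.61 (0.000739). *Tbc1d4*, a regulator of glucose transporter traffic, was called in the same direction, with −0.41 later and 0.16 earlier (adjusted p = 0.000693 and 0.248) and a change of −0.57 (adjusted p = 0.00184).

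**Figure D5:**
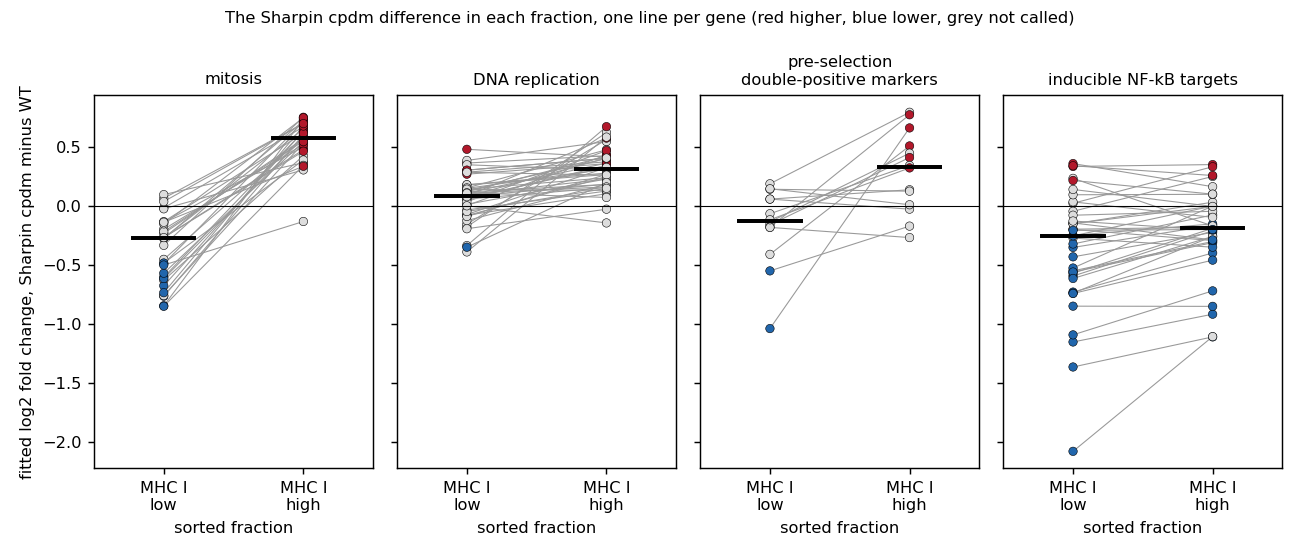
Fitted log2 fold change of *Sharpin* cpdm against WT in both fractions (MHC I low on the left) for 4 gene lists, one line per gene, with red points called higher, blue points called lower, grey points not called and a black bar at the median. The medians of mitosis genes (−0.28 and 0.57) and DP markers (−0.13 and 0.33) lie on opposite sides of 0, while NF-κB targets stay below it (−0.25 and −0.19).

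*Hoil* ΔCd4 cells of the same fraction were compared with *Sharpin* cpdm cells directly, because both comparisons with WT share the WT mice. The mutants differed for 861 genes (6.73%), 386 higher (3.02%) and 475 lower (3.71%) in *Sharpin* cpdm cells. None of the 31 mitosis genes and none of the 45 DNA replication genes was called between the mutants by limma, DESeq2 or edgeR, with 0 and 7 at an unadjusted p under 0.05 and 2 replication genes called without *Sharpin* cpdm mouse 3. Of them 27 and 21 rose in *Hoil* ΔCd4 cells against WT, where 6.65% of all genes were called, 3.84% higher and 2.81% lower. Of the 38 NF-κB targets, 7 were higher and 1 lower in *Sharpin* cpdm than in *Hoil* ΔCd4 cells, with 4 and 0 without *Sharpin* cpdm mouse 2 or weights, and the 1 was also not called without *Sharpin* cpdm mouse 3, WT mouse 1 or WT mouse 3. Immediate-early and heat-shock genes differed in one direction, with 6 of 18 lower in *Sharpin* cpdm cells (3 in a fit of only the groups compared). *Dnajb1* had −0.48 in *Sharpin* cpdm and 0.30 in *Hoil* ΔCd4 cells against WT, and −0.78 between the mutants (adjusted p = 1.64e-08). The number of 861 became 375 without *Sharpin* cpdm mouse 2, 445 without *Sharpin* cpdm mouse 3, 516 without weights and 518 with edgeR.

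*Cish* fell in *Sharpin* cpdm (−0.61) and rose in *Hoil* ΔCd4 cells (0.56), and the mutants differed by −1.17 (adjusted p = 2.87e-08). *Il7r* had the reverse pattern, 0.26 and −0.18, with a difference of 0.44 (6.18e-07). *Mcl1* fell in *Sharpin* cpdm cells (−0.47), had a value of −0.03 in *Hoil* ΔCd4 cells (adjusted p = 0.816), and differed between the mutants by −0.44 (4.04e-06). *Nab2* (−0.52, adjusted p = 6.62e-07), *Ifi47* (−0.94, 6.91e-06) and *Bcl2* (−0.40, 1.03e-05) were also lower in *Sharpin* cpdm than in *Hoil* ΔCd4 cells. Of 12 non-classical MHC I genes 5 were higher in *Sharpin* cpdm cells, of 17 MHC I presentation genes 5 were higher and 1 lower, and of 45 interferon-stimulated genes 9 were higher and 1 lower. Without *Sharpin* cpdm mouse 2 the counts higher were 2, 1 and 2, with 2 interferon-stimulated genes lower, and the MHC I and interferon counts higher were 3 and 4 without *Sharpin* cpdm mouse 3. The MHC I count higher was 3 without *Sharpin* cpdm mouse 1. *Nfkbia* and *Gadd45b* fell in both mutants. They fell by 0.40 and 0.92 in *Sharpin* cpdm cells and fell by 0.37 and 1.28 in *Hoil* ΔCd4 cells, and were not called between them (*Nfkbia*, −0.04, adjusted p = 0.779, and *Gadd45b*, 0.36, adjusted p = 0.114).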

How the data were processed

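RNA was measured in sorted CD69+ thymocytes of 18 samples, in 6 groups of 3 mice. Frozen cells gave RNA for TruSeq libraries that were read as single ends on a NextSeq 500. The authors aligned reads to mm10 and deposited counts per gene from featureCounts. Strand and multimapping settings are not given in the sources used here. Each file held 27179 gene IDs, of which 25275 matched RefSeq GRCm38.p6, and the other 1904 held 0.655% of counts. Genes with at least 0.5 CPM in 3 samples were kept (13739), and without predicted genes, genes with no symbol, Y-linked genes and *Xist*, 12798 were tested.

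CPM and log2 CPM were computed here from the counts with TMM factors (0.9873 to 1.015) and a prior count of 1. All 18 samples were fitted in limma 3.58.1 (R 4.3.3) with sample quality weights, an intensity trend, robust variances and the mouse as a random block (correlation 0.224), and p-values were adjusted by Benjamini-Hochberg over all genes. P-values measure the spread among these mice. DESeq2 1.42.0 and edgeR 4.0.16 (both without a mouse term), other filters, blocks and weights, *Xist* as a covariate and fits without each mouse were alternatives. Counts without distal chromosome 7 were added after the data were seen. A CPM of low counts carries counting error, so ratios of few counts have exact intervals, and groups at 0 were set at 3 counts per library. Named genes were the LUBAC genes, the 10 smallest p-values in each direction among genes called without overlap, the 5 largest changes in each direction at 5 CPM or more, up to 4 called members with the smallest p-values per list (the 2 most abundant where fewer than 2 were called), the 5 smallest p-values in each direction in the change between fractions and against HOIL-1 loss, and markers. *Icam1*, *Tnfaip3*, *Foxp3*, *Smc4* and the list members given as not called were added after their values were seen. A further gene that the rule names is not reported here. The gene lists and the comparison were chosen with earlier results of these data known. Calculations were tested on simulated data.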

Additional observations from a re-analysis of the deposited data

Results flagged for a closer look

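The difference between *Sharpin* cpdm and WT cells was not the same in the MHC I high and MHC I low fractions for 400 of 12798 genes (limma, adjusted over all genes), which is why the following values are given, each the log2 fold change in MHC I high cells minus that in MHC I low cells. Of the named genes reported here, 29 were among the 400. Genes of cell division and DNA replication had positive values, with 1.41 for *Nusap1*, 1.23 for *Ccnb2*, 1.09 for *Tpx2*, 0.77 for *Foxm1*, 0.66 for *Cdca8*, 0.47 for *Ncaph*, 0.49 for *Pola1*, 0.43 for *Uhrf1* and 0.30 for *Rrm1*. DP genes did too, with 1.70 for *Rag2*, 0.95 for *Arpp21* and 0.44 for *Cd8a*. Of the NF-κB genes, *Birc3* had 0.36, *Nfkbia* 0.33 and *Nfkb2* 0.25. Other positive values were 2.17 for the kinase gene *Blk*, 1.44 for *Tspan32*, 1.23 for *Apobr*, 0.87 for *Gramd3* and 0.66 for *Kansl1l*. *Blk* was too low for a filter at a mean of 2 CPM. Its call against WT in MHC I high cells was lost in 11 of 17 alternatives (adjusted p from 0.00686 to 0.752).

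Negative values were −2.32 for *Cd163l1*, −0.67 for *Enc1*, −0.61 for *Dusp4*, −0.57 for *Tbc1d4*, −0.42 for *Ski*, −0.31 for *Ahcyl2*, −0.30 for *Ldhb*, −0.29 for *Cd3e* and −0.26 for *Bcl2*. Of these 29 genes, 10 were called in the same direction by edgeR, 16 by DESeq2, 13 without WT mouse 3, 17 without *Sharpin* cpdm mouse 3 and 18 without *Sharpin* cpdm mouse 2. *Cd163l1* had 4 counts over the 3 mutant MHC I high samples, so its value depends on the prior count.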

How the results depend on the processing

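None of the 115 named genes that were called changed direction under 18 alternatives, and 13 of 28 not called did. Of the 115, 63 kept the call under all alternatives and 52 lost it without WT mouse 3, the most heavily weighted sample, with log2 fold changes then 0.309 to 1.31 times (median 0.868) those of the full fit. Of the 52, 14 lost the call under no other alternative. *Hspa5*, not called, was called with a filter at a mean of 2 CPM (adjusted p = 0.0455) and without WT mouse 2 (0.00829). With *Xist* as a covariate 1367 genes were called against WT, 645 higher and 722 lower, and 976 of them were among the 1103 of the full fit. Calls against WT (higher and lower in brackets) numbered 601 (280, 321) with DESeq2, 521 (248, 273) with edgeR, 431 (185, 246) without weights, 694 (307, 387) without the filter and 238 to 1039 (108 to 495, 130 to 544) without 1 mouse. Calls in the change between fractions numbered 134 (105, 29), 30 (26, 4), 253 (184, 69) and 146 (117, 29) in that order, 124 (102, 22) without the random mouse block and 104 to 496 (85 to 276, 19 to 220) without 1 mouse. Calls against *Hoil* ΔCd4 numbered 518 (220, 298) with edgeR, 516 (210, 306) without weights, 605 (255, 350) with DESeq2 and 375 to 889 (139 to 395, 236 to 494) without 1 mouse. The cause of these shifts was not tested, and the fits without 1 mouse also had fewer samples. Of 683 medians of gene lists under the alternatives, 54 moved by more than the spread between replicates, and 12 of the 38 lists had a median that changed sign under an alternative, among them interferon-stimulated genes, MHC I presentation, GIMAP, ribosomal proteins, the respiratory chain and mature single-positive markers. The mouse number as a replicate block gave 818 calls (365, 453), although the labels name no pairing of mice across genotypes. Deviations of same-numbered mice correlated at −0.0212, 0.064 and 0.0448. Mutant mice 1 and 2 correlated best with WT mouse 2 (0.0209 and 0.064) and mutant mouse 3 with WT mouse 3 (0.0448). Leaving out distal chromosome 7, an alternative chosen after seeing the data, left 1055 calls (507, 548). Depth of 12808248 counts or more leaves genes near 0.5 CPM with few counts per library.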

Other observations

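Gene segments of the TCR and immunoglobulin loci, looked at after the values were seen, had calls in one direction. Of 125 V segments tested 9 were higher in *Sharpin* cpdm MHC I high cells and 0 lower, and of 67 J segments 8 were higher and 0 lower (limma, adjusted over all genes). Together 17 of 192 were called, a share close to the 8.62% of all genes tested that were called, 4.15% higher and 4.47% lower. No counts under the alternatives are given for these segments. *Trbv12-1* was at 49.1, 47.9 and 49.8 CPM in the mutants and 36.2, 41.8 and 33.4 CPM in WT (log2 fold change 0.46 ± 0.065 (SE), adjusted p = 1.47e-05), and *Traj9* was at 7.23, 5.66 and 6.49 CPM against 2.99, 3.51 and 3.86 CPM (log2 fold change 0.79 ± 0.15 (SE), adjusted p = 0.000863), with no overlap in either. Segments resemble one another and could share reads.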
